A study of Caenorhabditis elegans with 12 samples.

Results

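The cuticle of C. elegans is a layered coat of collagens that the hypodermis, the skin of the animal, secretes anew before each molt. Each collagen chain carries Gly-X-Y repeats that wind into a triple helix, and chains are hydroxylated, cleaved and cross-linked on the way to the finished coat. The chains are encoded by a large gene family, most of whose genes have only a number for a name, and many are transcribed in a single stage or a single phase of the molting cycle. The adult coat is laid down at the last molt, when the zinc-finger transcription factor LIN-29, with the NAB protein MAB-10 as its co-factor, ends the larval program of the hypodermis. DDX-23 is a DEAD-box helicase whose counterparts in other species are parts of the spliceosome.

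The values hold 156 collagen genes named col and a number. The genes described here are the 129 of them that had a value above 0 in at least 1 library and were not among 22 numbers set apart, out of 46761 genes in all. Some of the 22, such as the adult collagen col-19, were set apart for how they differ between these same libraries, so the counts below are those of what was left. Just inside the limit stood col-163, col-123 and col-37, whose highest values were 0.04, 0.07 and 0.1 FPKM, and just outside it col-35, col-102, col-148, col-171 and col-185, which were listed at 0 in every library. The unit, FPKM, scales the fragments of a gene by the length of its transcript and by the mapped total of its library, so that genes can be ranked by it.

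RNA came from pools of hand-picked, age-synchronized young adult hermaphrodites, used whole, with 3 libraries from separate populations for each of 4 genotypes. The wild-type is strain VT1367, and the mutants are lin-29(n836) in strain MT24358, mab-10(tm2497) in MT19733 and ddx-23(n5705) in MT23825. All 4 strains carry the reporter transgene maIs105 (col-19::gfp), which means that wild-type animals are also reporter animals. The mutations are present in every cell of the animal, ddx-23(n5705) was isolated from a mutagenesis screen in mab-10(tm2497) animals, and its strain was described with more than a single missense change in the gene. In RNA of whole animals, fewer hypodermal cells and less RNA in each of them cannot be told apart.

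The FPKM of a library summed to between 1038344 and 1130220, and relative depth, estimated from genes with low values, ranged from 0.855 to 1.1. The number of reads is unknown. Transcripts of the mutated genes were present in all libraries (lin-29 from 2.74 to 8.66 FPKM, mab-10 from 3.09 to 8.38, ddx-23 from 50.28 to 72.58), so their levels do not check the labels. Several markers differed between the genotypes along with the collagens, and their part in the results below was not tested. The adult hypodermal marker col-19 lay between 128 and 516 FPKM in wild-type, 513 and 589 in ddx-23, 77.8 and 243 in mab-10 and 16.7 and 20.4 in lin-29 animals. The 9 genes of the molting epidermis summed to 28.6 to 99.3 FPKM in wild-type, 25.9 to 35.3 in ddx-23, 76.1 to 147 in mab-10 and 229 to 549 in lin-29 animals, where 8 of the 9 were called higher. The 6 yolk genes of the adult intestine summed to 20520 to 27520 FPKM in wild-type, 18887 to 19880 in ddx-23, 13865 to 20390 in mab-10 and 9480 to 11179 in lin-29 animals, where 4 of the 6 were called lower. Of 14 sperm genes 2 were called higher in ddx-23 and 7 in lin-29 mutants, and none of 10 oocyte and eggshell genes was called in any of the 3 mutants. Of 4 general hypodermal genes 2 were called higher in lin-29 mutants. These were the collagen genes dpy-7 and rol-6, which are counted again among the shape collagens below, while elt-3 and lin-26 were not called. Over all tested genes 11.1% were called higher and 0.845% lower in lin-29 mutants and 4.7% higher in ddx-23 mutants. No marker list had a gene listed at 0 in all libraries of a genotype.

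In wild-type adults a handful of these collagens supplied most of the message. The highest mean level was that of col-140 (WBGene00000713, WBcel235 chromosome V, 5835855 to 5836834), a gene of 2 coding exons, with 1954, 1698 and 1229 FPKM in the 3 libraries. It was followed by col-119, col-178, col-20 and col-124 at 1064 ± 225, 884 ± 394, 876 ± 484 and 693 ± 523 FPKM (SD, n = 3). These 5 made up 51.1% of the summed FPKM of the 129 collagens, and in each wild-type library 5 members sufficed for 50% or more of the sum. In lin-29 mutants, by contrast, 13 to 14 members were needed, with col-125, col-73, col-17, col-176 and col-42 at the head and col-125 at 925 ± 252 FPKM. In mab-10 mutants 7 to 8 were needed and col-140 and col-119 led, at 761 ± 93.9 and 724 ± 156 FPKM. In ddx-23 mutants 7 were needed, with col-140 at 2748 ± 90.5, col-119 at 1787 ± 144, col-122 at 1710 ± 95.9 and col-184 at 1388 ± 60.8 FPKM.

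The summed FPKM of the 129 collagens was 12923, 10917 and 6356 in the wild-type libraries, the last being replicate 3. The ddx-23 libraries gave 20902, 22871 and 19906, the mab-10 libraries 7628, 8802 and 6878 and the lin-29 libraries 11686, 16226 and 16526. Those of ddx-23 thus lay above all 9 others, the lin-29 libraries overlapped the wild-type range and the mab-10 libraries lay within it. As a share of all FPKM the sum was 1.95% ± 0.149 in ddx-23, 1.35% ± 0.253 in lin-29, 0.911% ± 0.272 in wild-type and 0.722% ± 0.0917 in mab-10 animals (SD, n = 3 each). No test was made on the sums, because the members were chosen with results of these libraries known.

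**Figure D1:**
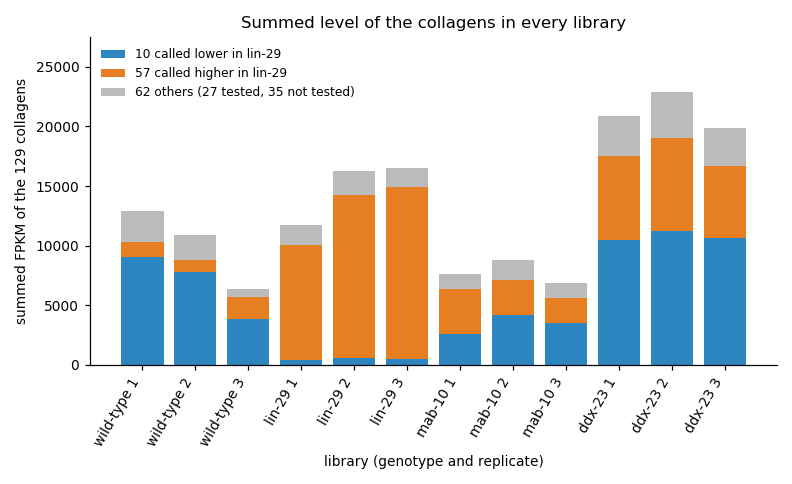
Summed FPKM of the 129 collagens (vertical axis) in each of the 12 libraries (horizontal axis), divided into the 10 called lower in lin-29 mutants, the 57 called higher there and the 62 others. The blue part takes 60.6% to 71.3% of the bar in wild-type and 3.06% to 3.6% in lin-29 libraries, and the ddx-23 bars, from 19906 to 22871, stand above all others.

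To ask which collagens depend on LIN-29, its mutants were compared with the wild-type. A gene was called when its limma test gave an adjusted p under 0.05 and its difference on the log2(FPKM+1) scale was over 1, that is, more than 2-fold on that scale, which understates the change of genes with low levels. Of the 94 collagens with at least 1 FPKM in at least 3 libraries, 57 were called higher in lin-29 mutants, against 11.1% of all 14199 tested genes, and 10 were called lower, against 0.845% of all. The 3 lin-29 libraries lay above the 3 wild-type libraries for 63 of the 94 (24.1% of all tested genes) and below them for 10 (5.71%). The median difference was 2.31 over the 94 and 0.19 over all tested genes. Among the 57 higher, the differences ran from 1.0 to 7.51, 39 were over 3 and 18 over 5. Of the 57, 11, among them col-41, col-54 and col-156, reached 1 FPKM in fewer than 3 libraries outside lin-29 and so were tested only because of their lin-29 levels.

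The largest increase was that of col-176 (WBGene00000749, chromosome X, 10077597 to 10078728), with 2.83, 1.41 and 1.78 FPKM in wild-type and 681, 696 and 326 in lin-29 libraries. Every lin-29 library thus lay far above the wild-type range, and the difference was 7.51 (standard error 0.29, adjusted p = 1.15e-07 from limma). For col-41 (WBGene00000618, chromosome X, 15175032 to 15176481) the wild-type libraries gave 0.47, 0.9 and 0.07 FPKM and the lin-29 libraries 117, 316 and 381, a difference of 7.40. The larval collagen col-17 (WBGene00000606, chromosome II, 4866436 to 4867576), whose promoter is known to bind LIN-29 in vitro, differed by 7.07 (standard error 0.60, adjusted p = 2.64e-05), from 7.1, 4.37 and 0.44 FPKM to 252, 704 and 848. Next in size were col-90, col-156 and col-157, which differed by 7.01, 6.88 and 6.73. The last of them, col-157 (chromosome V, 11484042 to 11485039), stood at 0.44 to 2.31 FPKM in all wild-type, mab-10 and ddx-23 libraries and at 185, 205 and 289 FPKM in lin-29 libraries. col-154, col-145, col-73, col-54, col-77 and col-104 rose by 6.15, 5.57, 5.52, 5.45, 5.40 and 5.39. All 12 of these calls held under each of the 21 alternatives tried. Those of col-41, col-54 and col-156 are a description, since only their lin-29 levels brought them into the test.

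The collagens that rose were mostly low in wild-type adults. Their mean wild-type level had a median of 3.97 FPKM, and 32 of the 57 were under 10 FPKM in every wild-type library. The highest in wild-type were among the smallest increases: col-42 stood at 282, 248 and 261 FPKM in wild-type and at 552, 700.1 and 381 in lin-29 libraries and rose by 1.0, and col-98 rose by 1.10. The opposite held for the collagens that fell, whose mean wild-type level had a median of 677 FPKM. Of the 10 members with the highest mean level in wild-type, 8 were called lower in lin-29 mutants and none higher. The other 2 were col-80 and col-93, with differences of -0.40 and 0.12 (adjusted p = 0.587 and 0.887 from limma). The wild-type values enter both the rank and the difference, so this is a description.

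The largest decrease was that of col-119 (WBGene00000693, chromosome IV, 8978926 to 8979795), a gene of 1 coding exon, which gave 1294, 1052 and 845 FPKM in wild-type and 19.6, 37.2 and 45.8 in lin-29 libraries. It fell by 4.98 (standard error 0.27, adjusted p = 1.49e-06 from limma). The most abundant member, col-140, was at 54.7, 101 and 96.9 FPKM in lin-29 libraries, a fall by 4.28 (standard error 0.22, adjusted p = 9.62e-07), and it stayed far below its 3 wild-type values. Of the others, col-8, col-124, col-178, col-184 and col-95 fell by 4.61, 4.46, 3.78, 3.71 and 3.71, and col-20, col-122 and col-179 fell by 2.70, 2.61 and 2.32. For col-124 the wild-type libraries themselves were far apart, at 1059.7, 925 and 94.5 FPKM, the last being replicate 3, yet the lin-29 libraries at 16.1, 24.1 and 19.5 lay below all of them. Together the 10 took 69.8%, 71.3% and 60.6% of the members' summed FPKM in wild-type and 3.6%, 3.35% and 3.06% in lin-29 libraries, where the 57 higher collagens took 82.7%, 84.2% and 87.0%. Elsewhere the same 57 took 30.4% to 34.1% of the sum (ddx-23 libraries) and 30.5% to 49.6% (mab-10 libraries). In wild-type libraries they took 10.1%, 9.45% and 28.5%, so that replicate 3, the last, lay close to the lowest ddx-23 and mab-10 shares. Both sets were chosen by the lin-29 calls against wild-type, so their shares in those libraries are a description.

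**Figure D2:**
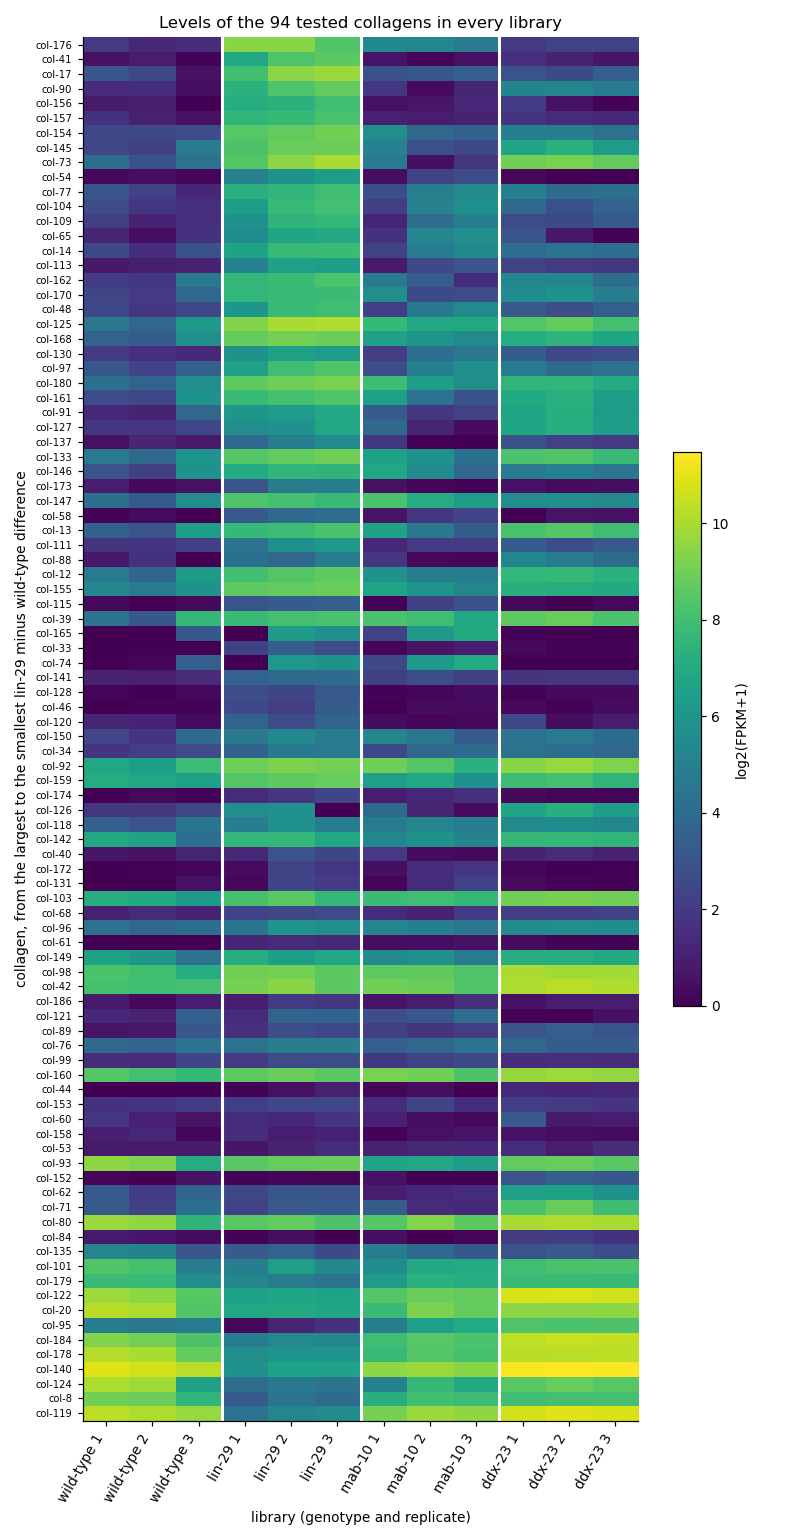
Levels as log2(FPKM+1) (color) of the 94 tested collagens (rows, ordered by the lin-29 minus wild-type difference) in the 12 libraries (columns, 3 for each genotype). From col-176 at the top, 57 members were called higher in lin-29 mutants, and the members at the bottom, down to col-119, are bright in wild-type and dark in lin-29 libraries.

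In ddx-23 mutants all calls were of higher levels. Of the 94 tested collagens 33 were called higher, against 4.7% of all tested genes, and none lower, against 0.401% of all. At so small a share, a lack of lower calls among 94 says little. At an unadjusted p under 0.05 from limma, 50 were higher (17.6% of all tested genes) and 2 lower (5.67%). The ddx-23 libraries lay above all wild-type libraries for 57 members (24.1% of all tested genes) and below them for 1 (9.35%). The median difference was 1.20 over the 94 and 0.094 over all tested genes. The differences ran from -1.79 to 5.19 over the 94 and from 1.01 to 5.19 over the 33. Without wild-type replicate 3, 1 member was called lower (0.88% of all). Of the 33, 3 were tested only because of their ddx-23 levels, col-44, col-84 and col-152, which are named here for that reason.

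The largest increase in ddx-23 mutants was that of col-73 (WBGene00000649, chromosome II, 4872098 to 4873129), which stood at 16.9, 6.49 and 18.7 FPKM in wild-type and at 519, 581 and 426 in ddx-23 libraries. The groups lay far apart, and the difference was 5.19 (standard error 0.88, adjusted p = 0.00443 from limma). For col-71 (WBGene00000647, chromosome II, 3500077 to 3502570) the wild-type gave 8.4, 3.5 and 17.43 FPKM and the ddx-23 libraries 287, 453 and 238, a difference of 5.10 (standard error 0.61, adjusted p = 0.000559). Next came col-127 with a difference of 4.75 (adjusted p = 0.00266), whose values could not be told from those of its neighbour, as described below. That neighbour, col-126, had equal values in all wild-type and ddx-23 libraries and the same difference, but was not called. The test takes its spread from all libraries, and col-126 was listed at 0 in lin-29 replicate 3. Increases of 4.69, 3.91, 3.90, 3.55, 3.53 and 3.35 were found for col-91, col-90, col-88, col-125, col-95 and col-62. The calls of col-13, col-145 and col-39, with differences of 3.88, 3.64 and 3.51, were less firm. That of col-13 was lost without wild-type replicates 1 or 2 (adjusted p = 0.0798 and 0.0879) and without ddx-23 replicates 1, 2 or 3 (0.0653, 0.0785 and 0.0561). That of col-145 was lost without wild-type replicates 1 or 2 or ddx-23 replicate 2 (0.0502, 0.0556 and 0.0544), and that of col-39 without wild-type replicates 1 or 2 (0.108 and 0.0987) or ddx-23 replicates 1, 2 or 3 (0.0936, 0.107 and 0.0697). In all 3 genes wild-type replicate 3 lay above the other wild-type libraries, for col-39 at 197 FPKM against 19.8 and 7.76.

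Abundant collagens also rose in ddx-23 mutants. For col-42 the ddx-23 libraries gave 1069, 1244 and 1107 FPKM against the wild-type's 282, 248 and 261, a difference of 2.11 (standard error 0.21, adjusted p = 0.000189 from limma). The ddx-23 libraries were close together and above all others. The differences of col-98, col-103, col-160, col-184 and col-122 were 2.14, 2.25, 1.64, 1.55 and 1.47, and all were called. For col-140 and col-119, the most abundant in both genotypes, the differences were 0.78 and 0.77 (adjusted p = 0.0565 and 0.118), and neither was called.

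**Figure D3:**
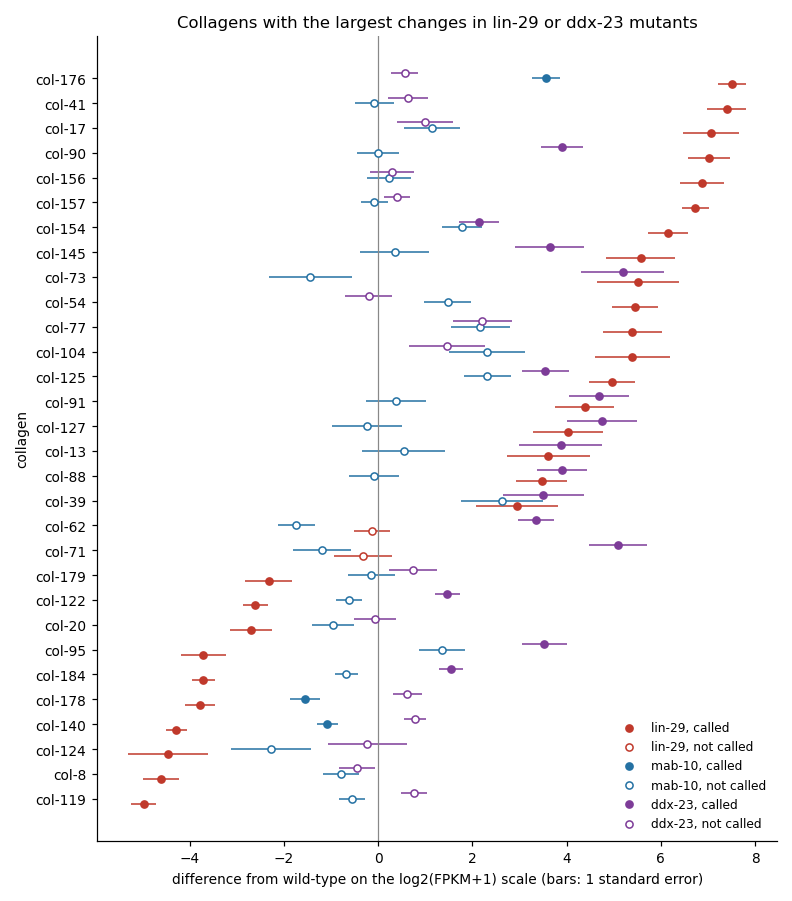
Differences from wild-type on the log2(FPKM+1) scale (horizontal axis, bars of 1 standard error) for the collagens with the largest changes in lin-29 or ddx-23 mutants (vertical axis). Red stands for lin-29 mutants, purple for ddx-23 and blue for mab-10, and filled points were called by limma. The red points run from 7.51 for col-176 to -4.98 for col-119, and for col-95, col-184 and col-122 the filled red and purple points lie on opposite sides of 0.

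In mab-10 mutants few of the 94 passed the threshold, a count that goes with which genes were set apart. Of the 94, 3 were called higher (0.901% of all tested genes) and 2 lower (0.134%), and the mab-10 libraries lay above the wild-type libraries for 19 (14.8% of all) and below them for 4 (3.23%). At an unadjusted p under 0.05 the limma test gave 34 higher (18.2% of all) and 7 lower (2.91%). Of the 22 numbered collagens set apart, 9 were called higher and 3 lower in the same comparison, so that 12 higher and 5 lower calls fell on the 116 tested numbered collagens in all. The median difference was 0.43 over the 94 and 0.14 over all tested genes. The call of col-176 held under all 21 alternatives: it stood at 39.99, 36.96 and 26.43 FPKM in mab-10 libraries, above the 3 wild-type libraries at up to 2.83 and below the 3 lin-29 libraries, and it differed from wild-type by 3.57 (standard error 0.29, adjusted p = 0.000121). The others were col-147, at 291, 137 and 79.4 FPKM against 17.8, 8.57 and 49.4 in wild-type, and col-141, at 3.58, 5.68 and 3.58 against 1.19, 0.99 and 1.56. Their groups did not overlap either, and they differed by 2.83 and 1.22 (adjusted p = 0.0369 and 0.0198).

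The 2 lower collagens in mab-10 mutants were among the most abundant of wild-type adults. col-140 stood at 728, 867 and 689 FPKM and fell by 1.08 (standard error 0.22, adjusted p = 0.0469 from limma), and col-178 fell by 1.55 (standard error 0.31, adjusted p = 0.0415). Both mab-10 ranges lay below the wild-type values. Apart from col-176, each of these calls was lost without single libraries. Without wild-type replicate 1 the adjusted p was 0.141 for col-147, 0.0857 for col-141, 0.167 for col-178 and 0.202 for col-140, and without wild-type replicate 2 it was 0.139, 0.109, 0.206 and 0.209 in the same order. Without mab-10 replicate 2 it was 0.121, 0.0853, 0.0782 and 0.109. When mab-10 replicate 3 was left out, the calls of col-141, col-178 and col-140 were lost (0.0549, 0.144 and 0.191). Those of col-147, col-140 and col-178, but not that of col-141, were also lost without lin-29 replicate 2 (0.0613, 0.0534 and 0.0662) or 3 (0.0582, 0.0612 and 0.0696) and without ddx-23 replicates 1 (0.0697, 0.0845 and 0.076), 2 (0.0698, 0.0833 and 0.075) and 3 (0.0682, 0.0841 and 0.0748).

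The mab-10 counts hung on single libraries, and so did those over all genes. Without mab-10 replicate 1, 22 collagens were called higher and 6 lower, against 7.39% and 0.549% of all tested genes. When wild-type replicate 3 was left out, 15 were higher and 11 lower, against 6.99% and 1.3% of all. With lin-29 replicate 1 left out they were 5 and 2 (1.41% and 0.162%). Leaving out mab-10 replicate 2 or wild-type replicate 1 gave 1 and 0, wild-type replicate 2 gave 1 and 1, and lin-29 replicate 3 gave 3 and 0. The counts were 2 and 0 without any 1 of the ddx-23 libraries, and likewise when lin-29 replicate 2 or mab-10 replicate 3 was left out. In these last fits 0.282% to 0.697% of all tested genes were called higher and 0.0634% to 0.12% lower. Within mab-10, replicate 1 differed from the others in both directions: for col-104 it gave 3.34 FPKM against 33.31 and 51.3, and for col-73 it gave 26.6 FPKM against 0.37 and 2.52.

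The mutants were also compared with each other, which does not use the wild-type values except in the estimate of the spread. Between lin-29 and mab-10 mutants, 43 collagens were higher in lin-29 (5.3% of all tested genes) and 9 lower (0.803%), and the libraries of these genotypes did not overlap for 52 with lin-29 above (15.4%) and 10 with lin-29 below (8.49%). The largest of these were col-41, col-90 and col-73, higher by 7.48, 7.01 and 6.95, and col-95 and col-119, with differences of -5.07 and -4.42. Between lin-29 and ddx-23 mutants 36 were higher in lin-29 (9.12%) and 19 lower (3.04%), with 50 (27.2%) and 25 (15.4%) not overlapping. The higher ones were led by col-176, col-41 and col-156, by 6.95, 6.76 and 6.59. All 12 of the largest differences in each of these comparisons held under the 21 alternatives. Among them, those of col-41, col-54 and col-156 are again a description, for the reason given above. Between mab-10 and ddx-23 mutants 3 were higher in mab-10 (1.64%) and 27 lower (3.52%), with 12 (20.8%) and 48 (16%) not overlapping. The 27 include both col-126 and col-127, whose values were equal in all libraries of these genotypes, so the same values are counted again.

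The 3 higher in mab-10 than in ddx-23 mutants were col-176, col-121 and col-174, by 3.0, 3.12 and 1.06. The largest differences in the other direction were those of col-73, col-71 and col-62, whose mab-10 minus ddx-23 differences were -6.63, -6.28 and -5.08. The 3 higher calls (1.64% of all tested genes) became 2 without lin-29 replicate 2 or either of wild-type replicates 1 and 2, 7 without lin-29 replicate 1 (2.75% of all), 13 without mab-10 replicate 1 (5.23%) and 1 without mab-10 replicates 2 or 3 or ddx-23 replicates 1, 2 or 3 (0.38% to 0.627%). The 27 lower calls became 17 without mab-10 replicate 3 (1.88% of all) or ddx-23 replicate 1 (1.77%) and 16 without ddx-23 replicate 2 (1.72%). The call of col-121 was lost without mab-10 replicates 2 or 3 (adjusted p = 0.069 and 0.111) or ddx-23 replicates 1, 2 or 3 (0.0914, 0.102 and 0.0646). That of col-174 was lost without either of these mab-10 replicates (0.103 and 0.149), any ddx-23 replicate (0.0971, 0.129 and 0.102), wild-type replicates 1 or 2 (0.055 and 0.0532) or lin-29 replicate 2 (0.0537).

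For 3 collagens lin-29 and ddx-23 mutants were called in opposite directions against their shared wild-type. col-95 (WBGene00000670, chromosome III, 11703994 to 11705091) stood at 28.4, 22.5 and 26.6 FPKM in wild-type, at 315, 301 and 307 in ddx-23 and at 0.2, 1.26 and 2.16 in lin-29 libraries. The 3 ranges were wide apart, and lin-29 minus ddx-23 was -7.24 (standard error 0.48, adjusted p = 5.12e-06 from limma). In mab-10 libraries col-95 gave 26.82, 89.35 and 127.2 FPKM, reaching from the wild-type level upward. For col-184 (chromosome X, 13469455 to 13470409) the lin-29 libraries gave 27.5, 41.7 and 38.3 FPKM, the wild-type 636, 539 and 310.2, and the ddx-23 libraries 1347, 1458 and 1359.95, and lin-29 minus ddx-23 was -5.26 (standard error 0.24, adjusted p = 4.18e-07). For col-122 (chromosome IV, 9563379 to 9564441) the same difference was -4.08 (standard error 0.27, adjusted p = 4.86e-06). The 3 genes were picked by their opposite calls, so a large lin-29 minus ddx-23 difference followed from the choice. These p-values from limma are therefore no further support.

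Other collagens differed strongly between lin-29 and ddx-23 mutants without opposite calls. col-71 gave 3.63, 8.15 and 8.47 FPKM in lin-29 libraries, within the wild-type range, and lin-29 minus ddx-23 was -5.42 (standard error 0.61, adjusted p = 0.00019). col-62, higher in ddx-23 mutants by 3.35 against wild-type, differed by -3.48 in the same comparison (adjusted p = 0.00016). col-152, named here after its values were seen, was at most 0.49 FPKM in the 9 libraries of the other genotypes and at 6.61, 10.32 and 7.55 FPKM in ddx-23 libraries. It met the minimum of 1 FPKM in 3 libraries through the ddx-23 libraries alone, so its levels are a description and no test is given. In the other direction col-176, col-41, col-156, col-157 and col-17 had lin-29 minus ddx-23 differences of 6.95, 6.76, 6.59, 6.33 and 6.07. Of these 5 genes, col-176 was also called higher in mab-10 mutants, as given above.

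Across the 94 tested members the mean level on the log2 scale was highest in lin-29 animals for 55, in ddx-23 for 32, in wild-type for 4 and in mab-10 for 3, and lowest in wild-type for 52, mab-10 for 19, lin-29 for 14 and ddx-23 for 9. For col-176 the order was lin-29, mab-10, then ddx-23 and wild-type, where the last pair differed by 0.56 (adjusted p = 0.276) and the other neighbours in the order by 3.94 and 3.0 (adjusted p = 1.48e-05 and 0.000218 from limma). For col-140 it was ddx-23, wild-type, mab-10, lin-29, with the first pair not called and mab-10 minus lin-29 passing the test (lin-29 minus mab-10 -3.21, adjusted p = 1.05e-05). For col-125, the most abundant member of lin-29 animals, it was lin-29, ddx-23, mab-10, wild-type, but none of the neighbours in this order differed past the threshold: neither lin-29 minus ddx-23 (1.41, adjusted p = 0.0642) nor mab-10 minus ddx-23 (-1.23, adjusted p = 0.143) nor mab-10 minus wild-type (2.32, adjusted p = 0.0503) was called.

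Some numbered collagens are neighbours on the chromosome, and neighbours did not always move together. Of 17 pairs of members with no other protein-coding gene between them, both were tested in 11. In 3 of the 11 the members were called in opposite directions in lin-29 mutants, in 1 both were called higher and in 1 both lower. Among the opposite pairs, that of col-17 and col-20 and that of col-20 and col-73 share a gene. No count was made over neighbouring genes in general, so these counts are a description. The clearest case was a run of 3 genes on the same strand of chromosome II, where col-17 and col-73 flank col-20 (4869670 to 4870791) at distances of 2093 and 1306 bases. In lin-29 mutants col-17 rose by 7.07 and col-73 by 5.52 while col-20 fell by 2.70, from 1228, 1075 and 324 FPKM in wild-type to 114, 124 and 108. In ddx-23 mutants col-73 rose by 5.19, while the differences of col-17 and col-20 were 0.99 and -0.06 (adjusted p = 0.36 and 0.96) and neither was called.

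The other pair with opposite calls was col-95 and col-96, 560 bases apart on opposite strands of chromosome III, where col-96 rose by 1.29 in lin-29 mutants (adjusted p = 0.0173) and by 1.51 in ddx-23 mutants (adjusted p = 0.0144). By contrast col-12 and col-13, known as a tandem duplication, were both called higher in lin-29 mutants (by 3.47 and 3.61) and also in ddx-23 mutants (by 2.63 and 3.88), and col-178 and col-179 (chromosome X, 997 bases apart) fell together in lin-29 mutants. Both members of col-12 and col-13 have a coding length of 948 bases, and reads shared between close copies could be divided between them by the quantification, so their separate values are uncertain. This applies in full to col-126 and col-127, which lie 510 bases apart on chromosome IV and share a coding length of 882 bases: their FPKM were equal, to 2 decimals, in 11 of 12 libraries, and in lin-29 replicate 3 col-126 was listed at 0 while col-127 had 114 FPKM. The pairs col-159 and col-160 and col-46 and col-47 overlap in the annotation, and reads in the overlap may count for either.

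**Figure D4:**
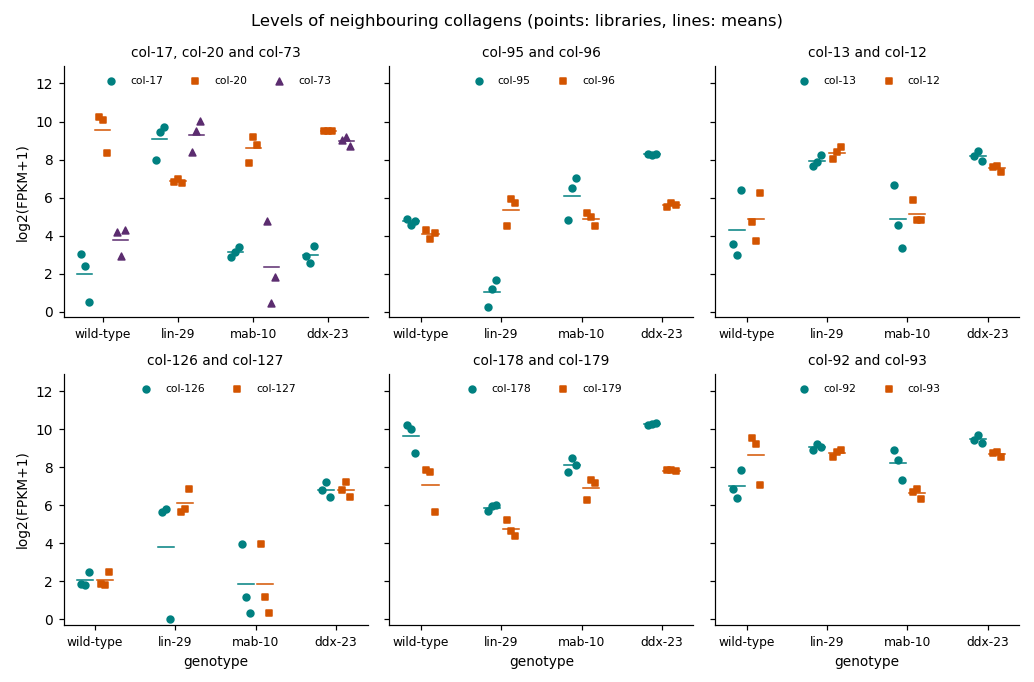
Levels as log2(FPKM+1) (vertical axis) in the libraries of the 4 genotypes (horizontal axis) for 6 groups of neighbouring collagens; each point is a library and each line the mean of 3. In lin-29 libraries col-17 and col-73 lie high and col-20 between them on the chromosome lies low, and col-126 falls on the values of col-127 except at 0 in 1 lin-29 library.

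The 129 genes lie on all chromosomes, with 34 on IV, 26 on V, 22 on II, 19 on X, 17 on I and 11 on III, and calls in lin-29 mutants came from each of them. Their coding length ranged from 462 to 2220 bases with a median of 912, and 110 were between 800 and 1100 bases. The members with 1 or 2 coding exons were more often abundant: 56 of 67 were tested and the median of their highest FPKM was 289, against 38 of 62 and 4.25 for those with 3 or more coding exons. In ddx-23 mutants 28 of the 56 tested were called higher and 5 of the 38. In lin-29 mutants 35 and 22 were higher and 9 and 1 lower. The shares over all tested genes were 4.7% higher in ddx-23 mutants and 11.1% higher and 0.845% lower in lin-29 mutants. The difference in level between these classes goes with the difference in calls, and its part in them was not tested. The gene with the most coding exons, 18, was col-99, which encodes a transmembrane collagen rather than a cuticle chain. It stood at 1.56 to 5.41 FPKM in all 12 libraries, and its differences from wild-type were -0.24 in ddx-23, 0.47 in mab-10 and 0.67 in lin-29 mutants (adjusted p = 0.711, 0.394 and 0.158 from limma).

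The remaining 35 members were too low to be tested. Their highest value in any library had a median of 0.48 FPKM, and 26 never reached 1 FPKM. The highest of them was col-47 at 3.12 FPKM in lin-29 replicate 3, and col-2, known as a dauer collagen, reached 0.27 FPKM. The library with the highest value was a lin-29 library for 20 of the 35, a mab-10 library for 9 and a ddx-23 or wild-type library for 3 each. No such count was made over other genes of low level.

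Some members differed between libraries of the same genotype in a way that went with the library number. Libraries numbered up to 3244 are the 3 of ddx-23, replicates 1 and 2 of wild-type and replicate 1 of both mab-10 and lin-29, and those from 3248 are the other 5. What the number stands for is not given in the sources used here, and the division was made with the values in view. col-74 was listed at 0, 0.15 and 10.37 FPKM in wild-type, 4.75, 72.46 and 128.51 in mab-10, 0, 68.64 and 56.03 in lin-29 and 0 in every ddx-23 library. col-165 followed it closely, at 0, 0 and 7.9 in wild-type, 4.15, 70.2 and 123.66 in mab-10, 0, 74.2 and 52.6 in lin-29 and at most 0.08 FPKM in ddx-23 libraries. In each genotype with later libraries, the highest earlier library of both genes lay below the lowest later library. Among the later libraries, wild-type lay below all those of mab-10 and lin-29 for both genes, so the genotypes differed as well. Neither gene was called in any of the 6 comparisons of genotypes, which have no term for the library number. With genotype in the model, later minus earlier libraries differed by 4.49 for col-74 and 4.45 for col-165 (standard errors 0.38 and 0.41).

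By the same measure 12 of the 94 tested members were higher in the later libraries (6.31% of all tested genes) and 1 lower (0.634%). The next in size were col-121, col-97, col-109, col-48 and col-14, with differences of 1.86, 1.69, 1.67, 1.67 and 1.64, and the lower one was col-135, at -1.23. The ddx-23 genotype has no later library, so for ddx-23 mutants genotype and library number cannot be fully told apart. With the library series as a term, 38 members were called higher and 2 lower in ddx-23, 10 and 3 in mab-10 and 58 and 10 in lin-29 mutants. The shares of all tested genes rose as well, to 8.51% higher and 0.979% lower in ddx-23 and 2.2% and 0.268% in mab-10, and were 10.5% and 0.873% in lin-29 mutants. Among the libraries up to number 3244 alone, where lin-29 and mab-10 have 1 library each and their spread is taken from the others, the counts in the same order were 47 and 3 (9.02% and 1.2% of all), 28 and 14 (4.03% and 1.43%), and 55 and 13 (10.8% and 1.44%).

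**Figure D5:**
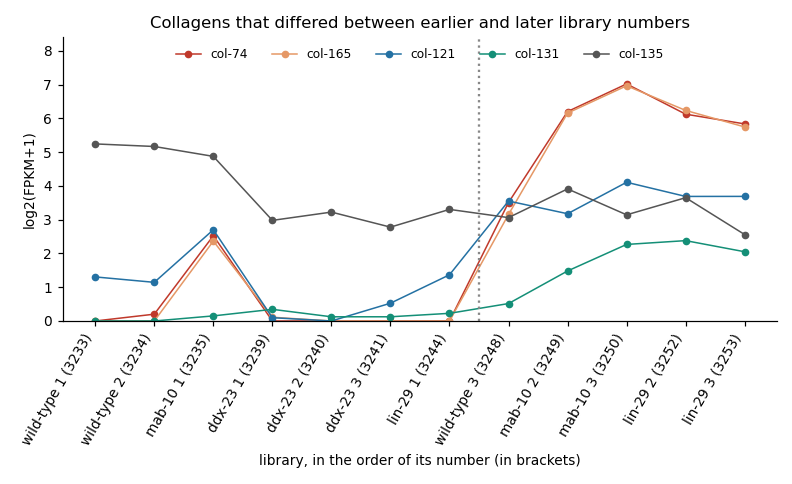
Levels as log2(FPKM+1) (vertical axis) of col-74, col-165, col-121, col-131 and col-135 in the 12 libraries in the order of their number (horizontal axis), with the dotted line between 3244 and 3248. col-74 and col-165 are at 0 or below 3 left of the line and above 3 right of it, and the ddx-23 libraries lie at or near 0.

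Beside the numbered genes, 2 other groups of the cuticle pathway were counted. Of 21 collagens named for the body shape or movement of their mutants, 19 were tested, and 15 were called higher and 1 lower in lin-29 mutants, against 11.1% and 0.845% of all tested genes. In ddx-23 mutants 4 were higher and none lower (4.7% and 0.401% of all), and in mab-10 mutants none was called (0.901% and 0.134%). At an unadjusted p under 0.05 from limma, 5 were lower in ddx-23 mutants (5.67% of all) and in mab-10 mutants 6 were higher and 1 lower (18.2% and 2.91%). The median difference in lin-29 mutants was 4.26, with dpy-5, dpy-4 and dpy-13 at the head (6.49, 6.25 and 6.23), and dpy-5, dpy-4, dpy-13 and bli-6 were the 4 that rose in ddx-23 mutants, by 4.97, 4.90, 4.54 and 1.72. bli-6 was also the 1 that fell in lin-29 mutants, by 2.54. Of 15 tested genes for collagen hydroxylation, folding, cleavage and cross-linking, 8 rose and none fell in lin-29 mutants, against the same 11.1% and 0.845% (at an unadjusted p under 0.05, 2 were lower, against 6.46%). Among them were the prolyl 4-hydroxylase genes dpy-18 and phy-2, by 1.75 and 2.36, and the cross-linking peroxidase genes mlt-7 and skpo-2, by 2.03 and 3.20. In ddx-23 mutants dpy-18 alone of the 15 was called, higher by 2.32, and in mab-10 mutants tsp-15 alone, higher by 1.27. This is 6.67% of the 15 in each case, against 4.7% and 0.901% of all tested genes, and a single gene says little about the list. At an unadjusted p under 0.05, ddx-23 mutants had 6 higher and 1 lower (17.6% and 5.67% of all) and mab-10 mutants 9 higher and 1 lower (18.2% and 2.91%).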

How the data were processed

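RNA-seq of 12 libraries from whole young adult hermaphrodites was analysed, 3 for each of 4 genotypes. Per the labels and Methods, the authors aligned reads to the WS258 (WBcel235) reference in STAR 2.5.3a, and RSEM 1.3.0 supplied FPKM. What they deposited is log2(FPKM+1) for every gene, unfiltered. The FPKM were recovered by undoing the logarithm.

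Tests ran on the deposited scale with limma 3.58.1 in R 4.3.3 (trend and robust), over genes that reached an FPKM of 1 in 3 libraries or more, with the 4 genotypes in 1 model that left 8 residual degrees of freedom. Adjustment was by Benjamini-Hochberg over all tested genes in each of the 6 comparisons. The authors used DESeq2, which needs counts and was not run here on FPKM. Their thresholds, an adjusted p under 0.05 and a fold over 2, were kept. Replicates are separate populations, so p-values measure the spread between populations. The fit was tested on simulated data.

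The members, the gene lists and the rule for names were chosen with earlier results of these data known. The rule named, in each mutant against wild-type, up to 12 called members with the largest difference in each direction, up to 6 between mutants, the 10 with the highest mean FPKM in each genotype, members called in opposite directions, and col-99 or any member with values equal to another gene, which also took col-55, col-123 and col-37 near 0. Neighbouring genes, col-44, col-84, col-152, members that followed the library number and examples of single libraries were named after their values were seen.

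Alternatives were a pseudocount of 0.1, no filter, an FPKM of at least 5, scaling by the median ratio, quantile normalization, the 2 groups alone, no fold threshold, the replicate number as a block, the library series as a term, libraries up to number 3244 only, and leaving out each library. Positions, coding lengths and neighbours come from Ensembl annotation release 115 of WBcel235, which may differ from WS258. Protein and promoter sequences were not analysed here. Tables and plots were made in Python 3.11.15 (pandas 2.3.3, numpy 2.4.6, matplotlib 3.10.9).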

Additional observations from a re-analysis of the deposited data

Results flagged for a closer look

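For 3 collagens the same contrast with wild-type passed the threshold in opposite directions in lin-29 and ddx-23 mutants. The lin-29 minus ddx-23 difference on the log2 scale was -7.24 for col-95, -5.26 for col-184 and -4.08 for col-122. The genes were picked by their opposite calls, so a large difference between these mutants followed from the choice. Its test is therefore no further support. All 3 lin-29 libraries lay below and all 3 ddx-23 libraries above the wild-type libraries for each gene.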

How the results depend on the processing

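Of 72 differences of named members, 62 kept their call under all 21 alternatives, none changed direction, and the exceptions were those named above for mab-10 and ddx-23 mutants and, against ddx-23, for col-121, col-174 and col-126 in mab-10 mutants. The counts of higher and of lower calls in lin-29 mutants, against wild-type and against the other mutants, stayed within 1.5 times. In mab-10 mutants against wild-type, 3 higher calls became 5 with a pseudocount of 0.1, 1 with the 2 groups alone, 10 with the library series as a term and 28 within the libraries up to number 3244, and the 2 lower calls became 0 with no filter, with the 2 groups alone or with the replicate block, 3 with a pseudocount of 0.1, with scaling by the median ratio or with the library series, and 14 within the libraries up to 3244. Over all tested genes the mab-10 shares moved as well. The higher share went from 0.901% to 1.39% with the pseudocount, 0.113% with the 2 groups alone and 2.2% with the library series. The lower share went from 0.134% to 0.0801% with no filter, 0.0282% with the 2 groups alone and 0.268% with the library series. It was 0.197% with the pseudocount or the median ratio and stayed at 0.134% with the replicate block. The shares up to number 3244 are given above. In ddx-23 mutants the 0 lower calls (0.401% of all) became 1 with a pseudocount of 0.1 (0.62%) or with the replicate block (0.613%). They became 2 with the library series (0.979%), and they also moved within the libraries up to 3244, as given above. In mab-10 against ddx-23 mutants, 3 higher calls (1.64% of all) became 5 with the 2 groups alone (2.49%) or with the library series (1.27%). They became 7 with the replicate block (2.95%), and they also moved within the libraries up to 3244, where mab-10 has 1 library. The cause of these changes was not tested. With 1 library left out, higher and lower calls ranged from 51 to 62 and 10 to 13 in lin-29, 1 to 22 and 0 to 11 in mab-10 and 25 to 39 and 0 to 1 in ddx-23 mutants against wild-type, 33 to 46 and 7 to 10 for lin-29 against mab-10, 32 to 43 and 14 to 19 for lin-29 against ddx-23, and 1 to 13 and 16 to 36 for mab-10 against ddx-23. In these fits 7.98% to 15.4% of all tested genes were called higher and 0.648% to 1.33% lower in lin-29 mutants. The shares were 0.282% to 7.39% and 0.0634% to 1.3% in mab-10 and 3.01% to 6.88% and 0.218% to 0.88% in ddx-23 mutants. They were 3.46% to 6.87% and 0.563% to 1.11% for lin-29 against mab-10 and 6.29% to 12.7% and 2.2% to 3.26% for lin-29 against ddx-23. For mab-10 against ddx-23 they were 0.38% to 5.23% and 1.72% to 4.04%. Scaling by the median ratio moved the median difference of all tested genes in lin-29 mutants from 0.19 to 0.03 and quantile normalization to -0.14, with 55 and 54 members called higher (9.4% and 6.81% of all).

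The replicate numbers did not pair the libraries. Of 18 pairs with the same number, 8 had deviations that correlated above 0.1 (r from -0.30 to 0.46), and 14 of 36 comparisons were best with their own number. Under the replicate block, lin-29 mutants had 57 members called higher and 11 lower, against 12.1% and 0.866% of all tested genes. For mab-10 mutants the counts were 3 higher and 0 lower (1.15% and 0.134% of all). For ddx-23 mutants they were 31 higher and 1 lower (4.8% and 0.613%). Each genotype had 3 libraries, read numbers are unknown, and values near 0 FPKM carry little weight.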
